A study of Mus musculus with 4 samples.

Results

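The 10 genes described here encode the core of the microRNA pathway. They include the nuclear processing enzyme Drosha and its partner Dgcr8, the exporter Xpo5, and the cytoplasmic processing pair Dicer1 and Tarbp2. The list also holds the Argonautes Ago1, Ago2 and Ago3, and the silencing scaffolds Tnrc6a and Tnrc6b. The 10 genes were given by name, with no threshold on a measured value but with earlier results of these data known. All 10 of 10 were found among the 45232 Ensembl gene identifiers of the count files. RNA sequencing was done on leukemic granulocyte-macrophage progenitors (L-GMPs) taken from secondary recipient mice with a leukemia that the fusion oncoprotein MLL-AF9 drives. The 2 groups are Scr, with 2 mice, and miR-99 KD, with 2 mice, 1 library per mouse; the labels spell out neither name. All 4 libraries share the MLL-AF9 leukemia, the GFP and tdTom markers of the gate, sorting for c-Kit, Sca-1, CD16/32 and CD34, and collection at the time of death. The age and strain of the mice, the construct that carries Scr or KD, and whether 1 primary leukemia seeded all recipients were not given in the sources used here.

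MicroRNAs are cut from long primary transcripts in the nucleus by Drosha, which works bound to its RNA-binding partner Dgcr8. Xpo5 carries the resulting hairpin to the cytoplasm, where Dicer1, helped by Tarbp2 or its paralog Prkra, trims it to a short duplex. One strand is kept by an Argonaute protein, which finds target messages mainly through the seed at the start of the microRNA, and TNRC6 proteins then recruit the enzymes that shorten the poly(A) tail and remove the cap. Members of the miR-99 family differ in sequence but share 1 seed. They are shown because the groups compared are labelled Scr and miR-99 KD, with the seed, bases 2 to 8, in capitals:
mmu-miR-99a-5p: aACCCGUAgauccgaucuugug
mmu-miR-99b-5p: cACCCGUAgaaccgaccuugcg
mmu-miR-100-5p: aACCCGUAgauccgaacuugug

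These mature sequences are from RefSeq on GRCm38.p6, at chr16:77598940-77598961, chr17:17830194-17830215 and chr9:41531437-41531458, all on the plus strand. The match to the seed, TACGGGT, or the match to bases 2 to 7 followed by A, ACGGGTA, was looked for on the strand of the transcript, in the longest 3′ UTR that the annotation gives a gene. The 2 motifs share 6 bases and can overlap in 1 site. Of 21037 genes with a 3′ UTR, 399 (1.90%) held at least 1 of the 2 motifs. Of the 10 core genes, Ago2 held 1 match and the other 9 held 0. Ago2 encodes the Argonaute known for cutting its targets. The match starts at base 768 of a 3′ UTR of 11064 bases. It is printed here with flanking bases, and the whole stretch lies at chr15:73106124-73106149 on the minus strand of GRCm38, with the motif in capitals:
Ago2 3′ UTR: tctaaagaaTACGGGTctgtggtgat

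A match of letters is a description and does not show binding. Tnrc6b held 2 matches of TACGGGT upstream of its 3′ UTR and 0 within it. Each library had 0 counts for the microRNA genes Mir99a, Mir99b and Mir100, which at the lowest depth still allows 0.0780 CPM. Because this kind of library does not follow mature microRNAs, the level of miR-99 was not checked here.

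Gene counts per library ran from 38458519 to 42674407. Library Scr 1 stood furthest apart: 28573 genes had a count in it, and olfactory receptor genes held 51.9 CPM. Next came miR-99 KD 2, with 24038 genes and 15.0 CPM. Scr 2 had 22310 genes and 5.52 CPM, and miR-99 KD 1 had 21372 genes and 4.78 CPM. Entries that name no gene made up 49.7%, 46.6%, 43.7% and 43.7% in the same order. Levels in the text are CPM, a gene's count relative to all gene counts of its library on a fixed scale, adjusted with TMM factors for differing library makeup. Cd33, a myeloid surface gene that is not part of the gate, had 429 and 398 CPM with Scr, against 262 and 259 CPM with miR-99 KD. Of the gate genes, Kit had 423 and 437 CPM with Scr, against 307 and 234 CPM with miR-99 KD. Cd34, Fcgr3 and Fcgr2b were higher in both miR-99 KD libraries, with Cd34 at 291 to 356 CPM and Fcgr3 at 382 to 485 CPM over the 4 libraries. Ly6a, the gene of Sca-1, was between 0.0947 and 0.197 CPM although the gate lists Sca-1 as positive. Mitochondrially encoded genes held 0.650% and 0.637% of gene counts with Scr, against 0.853% and 1.16% with miR-99 KD. Markers of T and NK cells summed to 0.189 to 0.850 CPM, with 5 of 5 under 1 CPM in every library.

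On GRCm38, looked up by Ensembl identifier, the core genes lie at chr15:12824815-12935291 (Drosha), chr16:18253948-18289246 (Dgcr8), chr17:46202782-46243598 (Xpo5), chr12:104687742-104751952 (Dicer1) and chr15:102518192-102523676 (Tarbp2). The Argonaute genes lie at chr4:126435012-126468583 (Ago1), chr15:73095844-73184935 (Ago2) and chr4:126331704-126429556 (Ago3). The TNRC6 genes lie at chr7:123123885-123195296 (Tnrc6a) and chr15:80711313-80941085 (Tnrc6b). The submitters' processing notes name mm9, and no coordinate was converted between builds.

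All 10 core genes were expressed in both groups, and none passed the test of miR-99 KD against Scr across all genes. All 10 passed the filter on low counts. Of the 15591 genes tested by edgeR's quasi-likelihood test, 0 (0%) passed a Benjamini-Hochberg adjusted p of 0.05, and so did 0 of the 10; the smallest adjusted p among the 10 was 0.667. At an unadjusted p under 0.05, 0 of the 10 were higher, where 414 of all genes (2.66%) were, and 0 were lower, where 816 (5.23%) were. DESeq2 called 0 of the 10, against 113 genes higher (0.725%) and 148 lower (0.949%) over all genes, and limma-voom called 0. The log2 fold changes of the 10 ran from −0.40 to 0.08 with a median of −0.05, beside a median of −0.01 over all genes tested. Of the 10, 7 had a negative value, where 51% of all genes did, and 5 to 7 were negative under the other scalings. Without Scr 1, the library that stood furthest apart, 8 were negative with a median of −0.10. Without Scr 2, 4 were negative and the median was 0.05. Without miR-99 KD 1, 8 were negative with a median of −0.13, beside −0.09 over all genes. Without miR-99 KD 2, 5 were negative with a median of 0.0002.

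In 3 of the 10 genes, Drosha, Tarbp2 and Tnrc6b, both miR-99 KD libraries lay below both Scr libraries, and in 0 of the 10 both lay above. Over all genes tested these shares were 25.3% below and 18.9% above, so the count of 3 is near the background. In bulk samples, fewer cells of a type and less RNA per cell cannot be told apart.

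**Figure D1:**
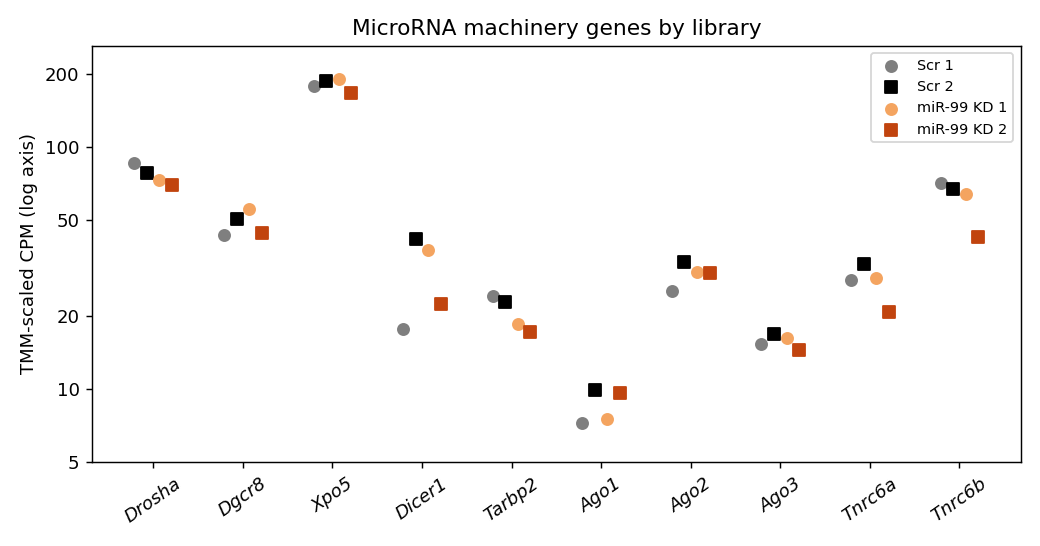
TMM-scaled CPM (log axis) of each core gene, with 1 point per library: grey and black for Scr 1 and 2, light and dark orange for miR-99 KD 1 and 2. The Xpo5 points lie close together, Dicer1 has its 2 low points in Scr 1 and miR-99 KD 2, and Drosha, Tarbp2 and Tnrc6b have both orange points below both Scr points.

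Among the nuclear genes, Drosha, the enzyme that makes the first cut, had 85.6 and 77.8 CPM in the Scr mice, against 73.1 and 69.6 CPM in the miR-99 KD mice. The groups did not overlap, and the 4 values lay close together. Its log2 fold change was −0.19 ± 0.16 (SE; ratio 0.874, 95% interval 0.646 to 1.18) with an edgeR adjusted p of 0.755, and it was −0.053 without Scr 1. Dgcr8, which binds the hairpin for Drosha, had 43.4 and 50.2 CPM with Scr, and with miR-99 KD 55.1 and 43.9 CPM. Scr 1 and miR-99 KD 2 were the low libraries, so the groups overlapped. Dgcr8 had a log2 fold change of 0.08 ± 0.21 (ratio 1.06, interval 0.713 to 1.57; edgeR adjusted p 0.918).

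The exons of Dgcr8 hold 2 annotated hairpins. One, Gm24572, has 88 exon bases and 0 coding bases there. The other, the microRNA gene Mir1306, lies at chr16:18284239-18284317 on the minus strand of GRCm38.p6, and 79 of its 79 bases fall in the coding sequence of Dgcr8. Mir1306 is shown because cutting of the Dgcr8 message by the Drosha complex is a known form of feedback between the 2 proteins, with the 2 mature arms in capitals:
Mir1306 hairpin: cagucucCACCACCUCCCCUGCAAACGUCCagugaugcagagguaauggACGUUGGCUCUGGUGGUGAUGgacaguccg

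Mir1306 had 0 counts in each of the 4 libraries. All 79 of its bases lie in an exon of Dgcr8 on the same strand, so reads there may not be assigned to Mir1306. The count of 0 therefore does not measure its level. The ratio of Drosha to Dgcr8, in CPM per kilobase of exon, was 2.56 and 2.01 with Scr and 1.72 and 2.06 with miR-99 KD, so the groups overlapped. Exons of Dgcr8 share 825 bases with Trmt2a on the opposite strand and 327 bases with Gm49776 on its own strand. The strand setting of the counting is not stated, so reads of these stretches may not be assigned to 1 gene. Other overlaps on the same strand are 72 bases of Drosha with Gm47288, 143 bases of Tnrc6a with Gm45846 and 82 bases of Tnrc6b with Mir5113.

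Xpo5, the export carrier of the hairpin, was the most abundant of the 10 per kilobase of exon. It had 178 and 186 CPM in the Scr mice, against 190 and 166 CPM in the miR-99 KD mice. Both the highest and the lowest library were miR-99 KD. The edgeR fit gave a log2 fold change of −0.03 ± 0.16 (ratio 0.979, interval 0.734 to 1.31; adjusted p 0.960). The value was positive, at 0.0070, with DESeq2 size factors.

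In the cytoplasmic pair, Dicer1 split by library and not by group. Dicer1, which trims the hairpin, had 17.6 and 41.5 CPM with Scr, and with miR-99 KD 37.4 and 22.5 CPM. Scr 1 and miR-99 KD 2 were low, Scr 2 and miR-99 KD 1 were high, and the group means, 29.6 ± 16.9 and 30.0 ± 10.5 CPM (SD, n = 2 each), lay within the spread. Scr 1 and miR-99 KD 2 were also the libraries with the most genes that had a count. The part of this in the Dicer1 values was not tested. The difference between the 2 Scr libraries, 1.24 on the log2 scale, was larger than that of 87.0% of all genes tested. With that spread the log2 fold change of 0.02 ± 0.51 had a 95% interval from 0.394-fold to 2.61-fold (edgeR adjusted p 0.991), and a difference within those bounds could not be seen. Leaving out Scr 2 gave 0.81 and leaving out Scr 1 gave −0.41 on the log2 scale.

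Tarbp2, the RNA-binding partner of Dicer1, had the lowest fold change of the 10. It had 24.2 and 22.9 CPM in the Scr mice, against 18.5 and 17.1 CPM in the miR-99 KD mice. The groups did not overlap, with a gap wider than the difference within either group. The log2 difference of −0.40 ± 0.19 (ratio 0.758, interval 0.531 to 1.08) had an adjusted p of 0.667 in edgeR and 0.933 in DESeq2. Its sign was negative in all 12 alternative settings run, from −0.43 to −0.29. Prkra, the paralog that can take the place of Tarbp2 at Dicer1, had 20.3 and 17.7 CPM with Scr, and with miR-99 KD 22.1 and 26.0 CPM. Its groups did not overlap either, with the miR-99 KD libraries higher (log2 fold change 0.34 ± 0.21, edgeR adjusted p 0.712; 0.52 without Scr 1). In CPM per kilobase of exon, the ratio of Dicer1 to Tarbp2 was 0.198 and 0.493 with Scr, and 0.548 and 0.357 with miR-99 KD, so the groups overlapped.

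Ago2, the 1 core gene with a 3′ UTR match to the miR-99 seed printed above, had 25.5 and 33.3 CPM in the Scr mice, against 30.3 and 30.2 CPM in the miR-99 KD mice. Both miR-99 KD values lay between the 2 Scr values. Ago2 had a log2 fold change of 0.04 ± 0.22 (edgeR adjusted p 0.961), and the 95% interval ran from 0.684-fold to 1.55-fold, so a difference within those bounds could not be seen. The log2 value was −0.066 without Scr 1 and 0.30 without Scr 2. Exons of Ago2 share 219 bases with Chrac1 on the opposite strand.

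Ago1 and Ago3 code for the neighbouring Argonautes on chromosome 4. Ago1 had 7.26 and 9.95 CPM with Scr, and with miR-99 KD 7.54 and 9.61 CPM. Its groups overlapped, each with 1 low and 1 high library (log2 fold change −0.0048 ± 0.29, ratio 0.997, interval 0.586 to 1.70; edgeR adjusted p 0.996). Ago3 had 15.4 and 16.8 CPM in the Scr mice, against 16.3 and 14.5 CPM in the miR-99 KD mice. All 4 values lay close together (log2 fold change −0.06 ± 0.21, ratio 0.959, interval 0.655 to 1.40; edgeR adjusted p 0.936).

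Ago4, the fourth Argonaute and not among the 10, varied most in its family. It had 7.21 and 16.9 CPM with Scr, and with miR-99 KD 12.9 and 3.67 CPM, low in the same 2 libraries as Dicer1. Its fold change on the log2 scale was −0.54 ± 0.75 (edgeR adjusted p 0.843), and −1.66 to 0.24 when single libraries were left out. Per kilobase of exon, Ago2 made up 38.8% and 33.7% of the summed Argonaute level with Scr, against 36.5% and 45.4% with miR-99 KD. Ago4 made up 22.2%, 34.5%, 31.3% and 11.1% in the same order, so it was the gene whose share varied most. The summed level was 4.68 and 7.05 CPM per kilobase with Scr, against 5.93 and 4.74 with miR-99 KD.

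**Figure D2:**
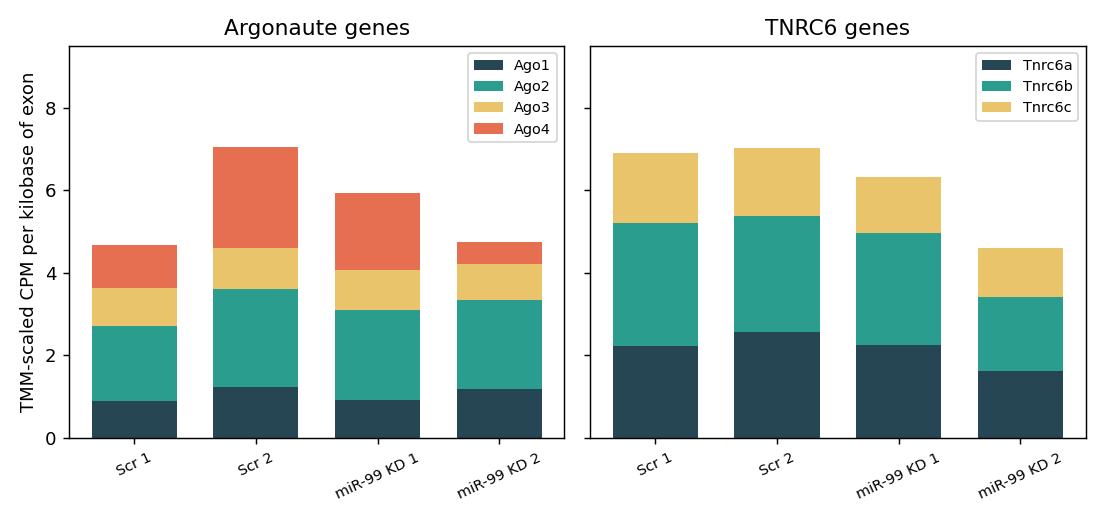
Stacked bars of TMM-scaled CPM per kilobase of exon for the 4 Argonaute genes (left) and the 3 TNRC6 genes (right) in each library, from 0. The Argonaute total is lowest in Scr 1 (4.68) and miR-99 KD 2 (4.74), where Ago4 is small, and the TNRC6 total is lowest in miR-99 KD 2 (4.61).

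The TNRC6 genes encode the scaffolds that link Argonaute to deadenylation, and in each of them miR-99 KD 2 was the lowest library. Tnrc6a had 28.3 and 32.7 CPM in the Scr mice, against 28.8 and 20.7 CPM in the miR-99 KD mice. Its miR-99 KD 1 value lay inside the Scr range, so the groups overlapped (log2 fold change −0.30 ± 0.25, ratio 0.812, interval 0.510 to 1.29; edgeR adjusted p 0.755). Tnrc6b had 70.6 and 66.5 CPM with Scr, and with miR-99 KD 64.0 and 42.4 CPM. The groups did not overlap, but miR-99 KD 1 lay near the Scr values and miR-99 KD 2 well below (log2 fold change −0.37 ± 0.26, ratio 0.775, interval 0.480 to 1.25; edgeR adjusted p 0.737). Leaving out miR-99 KD 2 gave log2 fold changes of −0.05 for Tnrc6a and −0.07 for Tnrc6b. With miR-99 KD 1 left out instead, they were −0.50 for Tnrc6a and −0.63 for Tnrc6b. Tnrc6c, the paralog outside the 10, had 21.9 and 21.2 CPM in the Scr mice, against 17.4 and 15.3 CPM in the miR-99 KD mice, with no overlap between the groups (log2 fold change −0.40 ± 0.20, edgeR adjusted p 0.681). The shares of the 3 paralogs in their summed level per kilobase stayed within 32.2% to 36.6% for Tnrc6a, 38.8% to 43.1% for Tnrc6b and 21.5% to 25.9% for Tnrc6c, while the sum was 6.91 and 7.03 CPM per kilobase with Scr, against 6.32 and 4.61 with miR-99 KD.

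**Figure D3:**
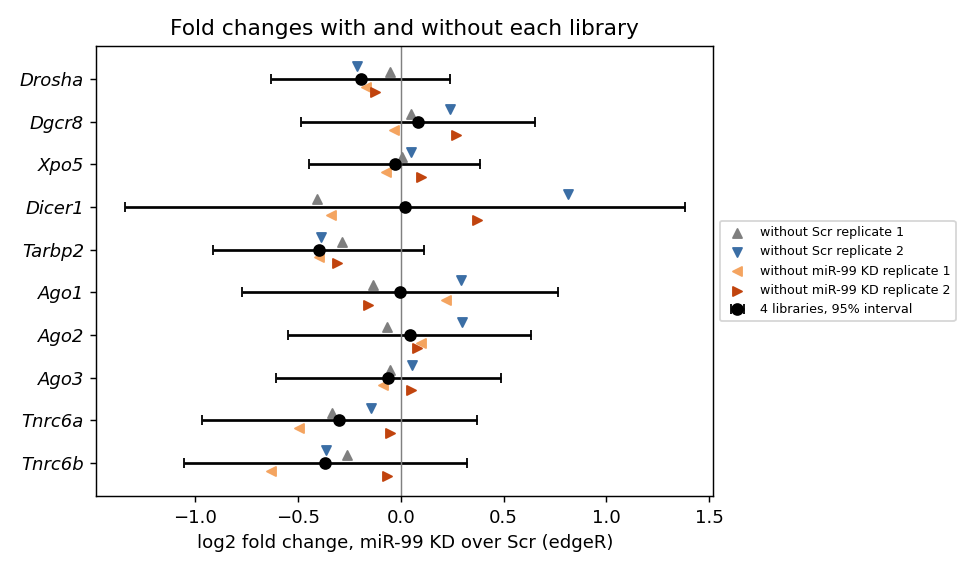
Log2 fold change of miR-99 KD over Scr from edgeR for each core gene (black, with the 95% interval) and the value without each library (triangles). Every interval spans 0; Dicer1 has the widest interval and moves from −0.41 to 0.81 as single libraries are left out, while Drosha, Tarbp2, Tnrc6a and Tnrc6b keep a negative sign.

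Differences between libraries varied with gene length, and the core genes are long. The exon length of the 10 had a median of 10413 bases, beside 3757 over all genes tested. Among genes with a mean above 5 CPM, the median log2 difference of miR-99 KD 2 from miR-99 KD 1 was 0.28 for genes with under 2000 bases of exon and −0.37 for those over 12000 bases. That of Scr 2 from Scr 1 was −0.12 and 0.20 for the same lengths. Between the groups, the median edgeR fold change of these lengths was 0.20 and −0.06. Over 12000 bases are Dicer1 (16750), Ago2 (14031), Ago3 (16571), Tnrc6a (12706) and Tnrc6b (23677). Mature granulocyte markers also differed: the 5 listed, Ltf, Ngp, Camp, S100a8 and S100a9, summed to 856 and 259 CPM with Scr, and with miR-99 KD 3074 and 9664 CPM, with 5 of 5 higher in both miR-99 KD libraries and 0 of 5 under 1 CPM. Of the 4 monocyte markers, which summed to 1924 to 3116 CPM, Ly6c2 and Csf1r were higher and Ccr2 and Itgam lower in both miR-99 KD libraries. Sums over the 4 libraries ran for erythroid markers from 41.6 to 103 CPM, for B cell markers, almost all of it Cd79b, from 63.1 to 89.6 CPM, and for mast and basophil markers from 53.1 to 109 CPM. For megakaryocyte markers they ran from 6.20 to 15.4 CPM, and for stroma and endothelium markers, most of it Pecam1, from 115 to 155 CPM. The part of length, of these cell and gate markers and of the mitochondrial share in the values of the core genes was not tested.

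**Figure D4:**
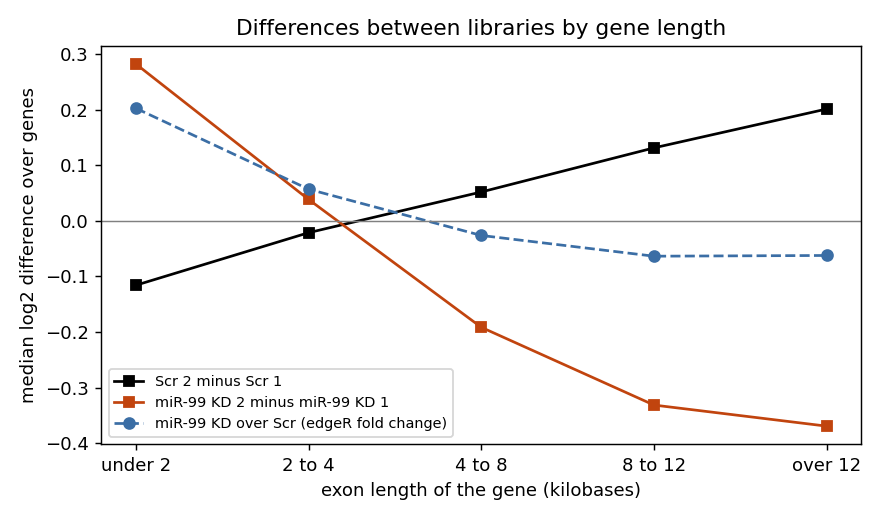
Median log2 difference over genes with a mean above 5 CPM, by exon length in kilobases, between the 2 Scr libraries (black), the 2 miR-99 KD libraries (orange) and the groups (blue, dashed). The black line goes up with length from −0.12 to 0.20, and the orange line goes down from 0.28 to −0.37.

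Per kilobase of exon, the order of the 10 was led by Xpo5 (24.2 to 27.7 CPM per kilobase over the 4 libraries). Then came Drosha (11.7 to 14.4), Dgcr8 (5.64 to 7.16) and Tarbp2 (3.77 to 5.32). None of these 4 ranges overlapped its neighbour. Tnrc6b (1.79 to 2.98), Tnrc6a (1.63 to 2.58), Ago2 (1.82 to 2.38) and Dicer1 (1.05 to 2.48) followed with ranges that overlapped each other. Ago1 (0.894 to 1.22) and Ago3 (0.877 to 1.01) were lowest and overlapped too, and the range of Ago1 also overlapped that of Dicer1. Exon lengths count every annotated exon, so a gene reads lower on this scale where some of its exons are not used in these cells. The core genes over 12000 bases all came after the first 4. Differences between libraries varied with length, and the part of length in this order was not tested.

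The wider pathway was read from lists of 72 further genes, of which 71 passed the filter on low counts; Trim71 did not. As for the core genes, 0 passed an edgeR adjusted p of 0.05. The median log2 fold change was −0.05, with 31 genes positive and 40 negative. At an unadjusted p under 0.05 in edgeR, 2 of the 71 were higher, Tut4 and Hspa8, and 2 were lower, Pan2 and Pan3. Over all genes tested, 2.66% were higher and 5.23% lower at that threshold. The medians of several lists moved when miR-99 KD 2 was left out. They were then 0.15 for nuclear cofactors, 0.11 for export, −0.03 for control of precursors, 0.0038 for deadenylation and 0.10 for decapping, with 8 of its 13 genes positive.

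Tut4 (older symbol Zcchc11) had the largest fold change of the 71 genes. It encodes a terminal uridylyltransferase that, directed by the RNA-binding protein Lin28a, tags precursors of the let-7 microRNA family for decay and keeps Dicer1 from processing them. Tut4 had 1.94 and 2.44 CPM in Scr (80 and 99 counts), against 14.2 and 22.3 CPM in miR-99 KD (588 and 941 counts). Both miR-99 KD libraries were several-fold above both Scr libraries. On the log2 scale the difference was 3.06 ± 0.35 (ratio 8.32, 95% interval 4.37 to 15.8). The adjusted p depended on the method: 0.301 in edgeR over all genes, 9.97e-11 in DESeq2 and 1.40e-05 in edgeR without Scr 1; the other 10 settings gave 0.0519 to 0.962. The gene lies at chr4:108459426-108559421 on GRCm38.

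Lin28a itself had 30.0 and 32.5 CPM in the Scr mice, against 23.8 and 11.8 CPM in the miR-99 KD mice. The groups did not overlap, with miR-99 KD 2 lowest (log2 fold change −0.81 ± 0.39, edgeR adjusted p 0.667). Leaving out miR-99 KD 2 gave −0.36, and leaving out miR-99 KD 1 gave −1.35. Zc3h12a, a ribonuclease that cuts precursor hairpins, had 14.4 and 14.0 CPM with Scr, and with miR-99 KD 9.35 and 10.1 CPM, again without overlap (−0.55 ± 0.21, edgeR adjusted p 0.631). Tut7, the close relative of Tut4, had 156 and 186 CPM in the Scr mice, against 159 and 97.6 CPM in the miR-99 KD mice, with overlap (−0.41 ± 0.29, edgeR adjusted p 0.735); it is named after its values were seen. Of the 9 measured genes of this control list, 3 were positive and 6 negative, with a median of −0.24. Trim71, a known let-7 target that did not pass the filter, was the other gene of these lists with a 3′ UTR match to the miR-99 seed, with 2 matches. Exons of Tut7 share 1299 bases with Etohd2, and those of Lin28a share 234 bases with Gm13061, both on the opposite strand.

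Pan2 and Pan3 form the deadenylase that TNRC6 proteins recruit first to a target message. Pan3, its scaffold subunit, had 79.7 and 116 CPM with Scr, and with miR-99 KD 50.9 and 38.8 CPM (log2 fold change −1.12 ± 0.28, edgeR adjusted p 0.539, DESeq2 adjusted p 0.0829). Pan2, the catalytic subunit, had 115 and 110 CPM in the Scr mice, against 79.4 and 58.3 CPM in the miR-99 KD mice (−0.71 ± 0.21, edgeR adjusted p 0.585, DESeq2 adjusted p 0.481; −0.47 without miR-99 KD 2). In both genes each miR-99 KD library lay below each Scr library. Cnot6l, a catalytic subunit of the other deadenylase complex, had 157 and 178 CPM with Scr, and with miR-99 KD 145 and 146 CPM (−0.21 ± 0.15, edgeR adjusted p 0.741; −0.065 without Scr 2). Of the 14 deadenylation genes, 5 were positive and 9 negative, with a median of −0.06. In 5 of the 14 both miR-99 KD libraries lay below both Scr libraries, beside 25.3% of all genes tested.

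Most genes that load Argonaute or bind it had positive fold changes, and none passed the adjusted threshold. Of 15, 13 were positive and 2 negative, with a median of 0.36, where 7645 of all 15591 genes were positive. In 8 of the 15 both miR-99 KD libraries lay above both Scr libraries, beside 18.9% of all genes. Among the 8, Gemin4 had only 17 and 17 counts with Scr, against 25 and 20 with miR-99 KD. It shares 3353 of its 3734 exon bases with Glod4 on the same strand. Ddx20 had 91.9 CPM in Scr 2, against 95.2 and 92.4 CPM with miR-99 KD. At a minimum count of 50, 11 of 14 genes of the list were positive, with a median of 0.30. The median depended on the Scr library used: it was 0.16, with 11 positive, without Scr 1 and 0.58 without Scr 2. The granulocyte marker sums and the mitochondrial share given above were higher in both miR-99 KD libraries too, and their part in these values was not tested. Hspa8, a heat shock chaperone of Argonaute loading, had 330 and 333 CPM in the Scr mice, against 418 and 452 CPM in the miR-99 KD mice (0.39 ± 0.14, edgeR adjusted p 0.621). Hsp90aa1, a chaperone that acts with it, had 276 and 307 CPM with Scr, and with miR-99 KD 353 and 441 CPM (0.45 ± 0.18, edgeR adjusted p 0.655). Mov10, a helicase found with Argonaute, went against the list with 12.3 and 13.1 CPM in the Scr mice, against 9.81 and 6.96 CPM in the miR-99 KD mice (−0.60 ± 0.27, edgeR adjusted p 0.659; −0.34 without miR-99 KD 2). The list has a median exon length of 4142 bases, and the chaperones also serve many proteins other than Argonaute.

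Among nuclear cofactors, export factors and decapping genes, 0 passed an adjusted or an unadjusted p of 0.05 in edgeR. The cap-binding gene Ncbp1 had 126 and 165 CPM in the Scr mice, against 187 and 183 CPM in the miR-99 KD mice (0.34 ± 0.19, edgeR adjusted p 0.696; 0.60 without Scr 2). The RNA-binding gene Hnrnpa2b1 had 1981 and 1917 against 1888 and 1398 CPM (−0.25 ± 0.20, edgeR adjusted p 0.754; −0.013 without miR-99 KD 2). In both genes the groups did not overlap, and the list of 13 nuclear cofactors had a median of −0.08. Of the 4 export genes, Ran, the switch that Xpo5 needs to bind and release its cargo, had 264 and 267 CPM with Scr, and with miR-99 KD 276 and 358 CPM (0.25 ± 0.19, edgeR adjusted p 0.740; 0.087 without miR-99 KD 2 and 0.49 without miR-99 KD 1). Rcc1 (−0.23 ± 0.24) and Xpo1 (−0.07 ± 0.24) overlapped between the groups. The decapping genes Dcp1b (−0.45 ± 0.20), Edc3 (−0.44 ± 0.20) and Edc4 (−0.44 ± 0.22) had lower values in both miR-99 KD libraries, with edgeR adjusted p from 0.659 to 0.681, in a list of 13 with a median of −0.11. Without miR-99 KD 2, Edc3 was −0.20 and Edc4 −0.18. Exons of Edc3 share 1284 bases with Clk3 on the opposite strand, and those of Edc4 share 458 bases with Nrn1l.

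**Figure D5:**
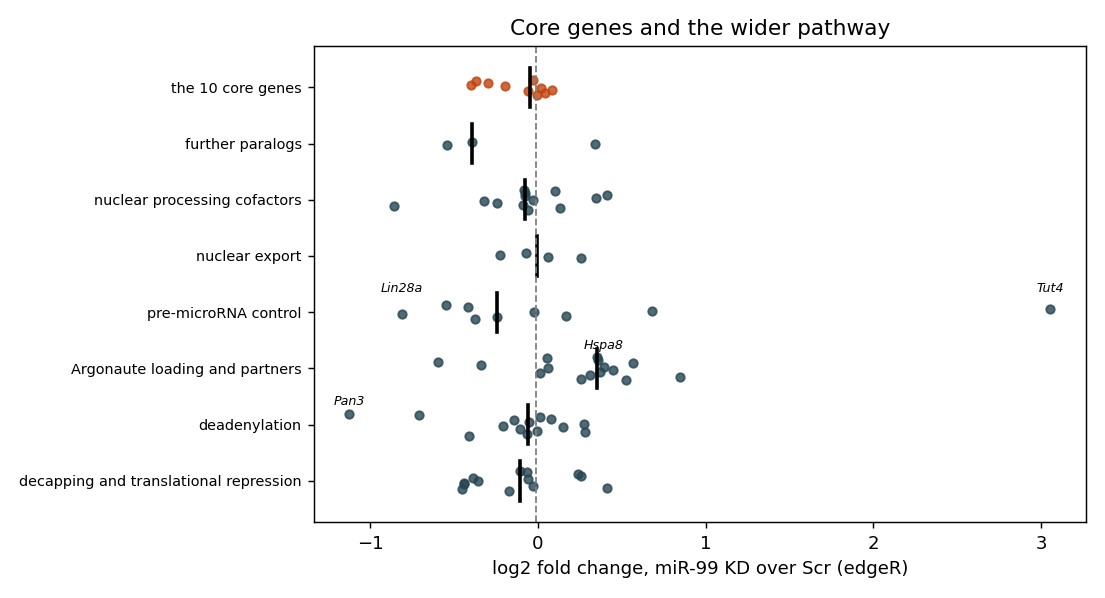
Log2 fold change of miR-99 KD over Scr from edgeR, with 1 point per gene that passed the filter, for the 10 core genes (orange) and 7 lists of the wider pathway (blue). Black bars are list medians and the dashed line is the median over all genes tested (−0.01); the core genes lie between −0.40 and 0.08, the Argonaute loading list has the highest median (0.36), and Tut4 stands alone at 3.06.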

How the data were processed

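The authors deposited raw counts of reads for each Ensembl gene, in 1 file per library; the values are whole numbers with differing totals. Per the labels, sorted cells were lysed in Trizol LS and amplified with SMARTer. The submitters' processing notes name STAR, Picard, HTSeq, DESeq2 and mm9; versions, annotation release and strand setting were not given in the sources used here. The 5 categories that name no gene (43.7% to 49.7% of entries) stayed out. Symbols, lengths and coordinates came from GENCODE M21 (GRCm38), matched by identifier for 44585 of 45232 genes.

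The main test was edgeR 4.0.16 (R 4.3.3), quasi-likelihood, two-sided, 2 miR-99 KD against 2 Scr libraries, with TMM factors and a filter at a minimum count of 10; p-values were adjusted by Benjamini-Hochberg over 15591 genes at 0.05. Errors of fold changes were derived from the test statistic, and intervals use 2.41 prior and 2 residual degrees of freedom. DESeq2 1.42.0 and limma 3.58.1, other scalings and filters, a replicate block and leaving out each library were alternatives. The fit was tested on simulated data. A count of 0 allows up to 3 counts; this floor covers counting error only. Named genes were all 10 core genes, Ago4, Tnrc6c, Prkra and the 3 genes with the smallest p in each wider list, of which 1 is not reported here. The core genes and lists were chosen with earlier results of these data known. Nothing says that the 2 groups' replicate numbers pair mice, and p-values measure the spread between these mice only.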

Additional observations from a re-analysis of the deposited data

How the results depend on the processing

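For the 10 core genes the count past an adjusted p of 0.05 was 0 in all 12 alternatives run. Over all genes the count was 261 with DESeq2, 23 with upper-quartile factors, 9 with no filter on low counts, 294 without Scr 1 and 0 without each other library; it was 0 with DESeq2 size factors in edgeR, limma-voom and a minimum count of 50. With the replicate block the count was 0 over all genes and for the core genes. Same-numbered libraries deviated from their group means in opposite directions (r −0.43 across genes); with the crossed pairing as a replicate block, chosen after seeing the data, the count was 28 over all genes and 0 for the core genes. Signs were compared for 31 genes, the core genes and named genes of the wider lists. Of these, 9 changed sign in some setting, given next on the log2 scale, and the cause was not tested. Xpo5 was 0.0070 with DESeq2, 0.0070 with its size factors in edgeR and 0.025 with no filter. Ago1 was 0.041 with DESeq2, 0.041 with its size factors, 0.0032 in limma-voom, 0.050 with no filter, 0.0022 with the replicate block and 0.0021 with the crossed replicate block. Dicer1 was −0.0062 with a minimum count of 50. When single libraries were left out, log2 fold changes ran from −0.033 to 0.27 for Dgcr8, −0.072 to 0.096 for Xpo5, −0.41 to 0.81 for Dicer1, −0.16 to 0.29 for Ago1, −0.066 to 0.30 for Ago2, −0.085 to 0.055 for Ago3, −1.66 to 0.24 for Ago4, −0.48 to 0.056 for Rcc1 and −0.22 to 0.23 for Xpo1. Without 1 library, the lone library of a group is assumed to vary like the other group.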

Other observations

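Several other genes of the pathway shared the library pattern of Dicer1, with low values in Scr 1. Chosen after their values were seen, 11 of 71 genes of the wider lists (15.5%) had less than 0.5 times the Scr 2 level in Scr 1, among them Ago4, Cnot11, Khsrp and Fxr2. Over all genes tested this was 11.1%. The deadenylase subunit gene Cnot11 had 11.9 and 68.4 CPM with Scr 1 and 2, and 61.1 and 36.3 CPM with miR-99 KD 1 and 2. Khsrp, which encodes an RNA-binding protein of microRNA maturation, had 28.5, 93.8, 92.7 and 44.8 CPM in the same order, and Fxr2, a relative of Fmr1, had 7.31, 28.4, 26.9 and 9.09 CPM. In 9 of the 71 genes (12.7%; 8.88% of all genes tested) miR-99 KD 2 was under 0.5 times miR-99 KD 1.

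Host transcripts, from which Drosha cuts microRNAs, were found by symbol after the values were seen. Of 10 such genes, 4 passed the filter on low counts. Mir99ahg, the host of miR-99a, did not pass, with 59 and 3 counts for Scr 1 and 2, and 1 and 2 counts for miR-99 KD 1 and 2. Mir17hg, which carries the miR-17 cluster, had 360 and 439 counts with Scr, against 335 and 342 with miR-99 KD (a log2 fold change of −0.27 ± 0.23; edgeR adjusted p 0.763). Mir142hg, the host of a microRNA abundant in blood cells, had 116 and 114 counts with Scr, against 128 and 109 with miR-99 KD (0.01 ± 0.26, edgeR adjusted p 0.989). Mir22hg (−0.045 ± 0.31) and Mir155hg (−0.86 ± 0.76) had edgeR adjusted p of 0.969 and 0.764.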
